A study of Mus musculus with 19 samples.

Results

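A set of 10 genes of protein folding in the lumen of the endoplasmic reticulum (ER) was followed through libraries of sorted astrocytes, microglia and monocytes from mice with experimental autoimmune encephalomyelitis (EAE), a model of multiple sclerosis. They are a list of names, drawn up with earlier results of these data known but with no threshold on a measured value: Hspa5, Hsp90b1, Canx, Calr, Pdia3, Pdia4, Pdia6, Dnajc3, Dnajb11 and Creld2. All 10 were among the 6376 genes of the astrocyte table and the 3776 genes of the monocyte table. The microglia table, with 3067 genes, held 9 of them and not Creld2. The mice were wild-type female C57Bl/6 animals at postnatal day 85, and every one had received a lentivirus in the brain before EAE was induced with MOG35-55, a piece of a myelin protein given at 25 µg in CFA. The virus used the astrocyte promoter Gfap for GFP and a short hairpin RNA, and the hairpin was either shXbp1, against Xbp1, or the scrambled shScrmbl. Libraries numbered 4 shXbp1 and 4 shScrmbl for astrocytes, 3 and 4 for microglia, and 2 and 2 for monocytes. Microglia and monocytes thus came from animals whose astrocytes were the target, all groups share the virus and the disease, and the labels do not say whether astrocytes were sorted on GFP.

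Secreted and membrane proteins fold in the ER with the help of chaperones, which hold unfolded chains, and of disulfide isomerases, which form and rearrange the bonds between cysteines. When unfolded chains accumulate, sensors in the ER membrane start the unfolded protein response. Among them, IRE1 splices Xbp1 mRNA into the form that encodes an active transcription factor, while ATF6 is cut free to act as one itself, and both raise the transcription of ER folding genes. A classic site for this control is the ER stress response element (ERSE), which NF-Y binds at its CCAAT end and ATF6 or XBP1 at its CCACG end.

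Most promoters of these genes held that element. The list of names did not use promoter sequence, but several of the genes are textbook targets of the response. Finding the element in them was thus in part given in advance. The letters searched were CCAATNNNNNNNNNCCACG (ERSE), ATTGGNCCACG (ERSE-II) and TGACGTGG (the unfolded protein response element, UPRE), on both strands and exactly as written, in RefSeq promoters of 300 bases that run from 250 bases before to 50 after each start (assembly GRCm38.p6, the sequence also called mm10). All 10 genes matched a promoter. ERSE was present in 7 of the 10, against 39 of 32851 promoters in the whole table (0.119%). ERSE-II was present in 1 of the 10, against 12 of 32851 (0.0365%), and UPRE in 0 of the 10, against 222 (0.676%). ERSE was found in 0 of 18 promoters of other ER folding genes, 0 of 13 of response regulators and 0 of 16 of cytosolic chaperones. These lists hold 27, 14 and 20 names, and those that matched no promoter by symbol were not searched. In these lists ERSE-II was found in 1 of the 13 regulators (Herpud1) and UPRE in 2 of the 18 other ER folding genes (Txndc5 and Txndc11). The pieces below are shown because they carry the shared letters: each is read in the direction in which CCAAT comes first, with the fixed letters of the element in capitals and 5 flanking bases on either side.
Hspa5, chr2:34772020-34772048, + strand: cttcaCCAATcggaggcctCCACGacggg
Hsp90b1, far element, chr10:86705633-86705661, - strand: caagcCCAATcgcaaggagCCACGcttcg
Hsp90b1, near element, chr10:86705528-86705556, + strand: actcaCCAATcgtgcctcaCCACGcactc
Canx, chr11:50325795-50325823, - strand: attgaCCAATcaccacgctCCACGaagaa
Calr, chr8:84847070-84847098, + strand: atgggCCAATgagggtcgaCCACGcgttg
Pdia6, chr12:17266486-17266514, + strand: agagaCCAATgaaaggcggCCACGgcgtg
Dnajc3, chr14:118937822-118937850, + strand: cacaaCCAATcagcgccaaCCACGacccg
Creld2, chr15:88819515-88819543, - strand: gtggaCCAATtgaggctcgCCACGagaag
The 9 bases between the fixed letters differed from gene to gene, and the element lay between 46 and 212 bases before the RefSeq start. In GENCODE M21 Hspa5 begins earlier, at chr2:34771970, so there its element lies inside the annotated gene. The element pointed the same way as the gene in Hspa5, Canx, Pdia6 and Dnajc3 and the opposite way in Calr and Creld2. Dnajb11 carried ERSE-II instead, 7 to 18 bases after its start, inside the first exon (chr16:22857847-22857867, + strand), with the fixed letters again in capitals.
Dnajb11: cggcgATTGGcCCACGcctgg
Pdia3 and Pdia4 held none of the 3 patterns in these windows, which says only that these letters are not there.

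**Figure D1:**
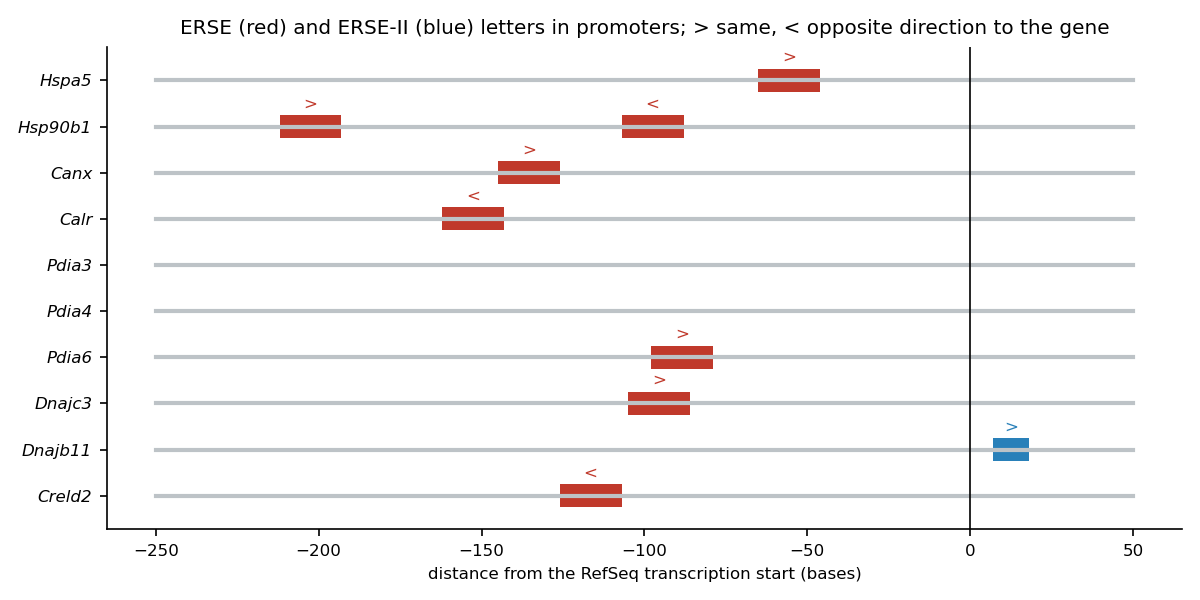
Place of the ERSE (red) and ERSE-II (blue) letters in the promoters of the 10 genes, as distance in bases from the RefSeq start; arrowheads give the direction relative to the gene. ERSE stands before the RefSeq start in 7 genes, and Hsp90b1 has 2 of them facing each other.

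Hsp90b1 was the only one of the 10 with 2 elements. They face each other across 86 bases, and the whole stretch from 222 to 78 bases before the start (chr10:86705523-86705666, - strand, 144 bases, in the direction of the gene) is shown with the fixed letters of both in capitals.
Hsp90b1: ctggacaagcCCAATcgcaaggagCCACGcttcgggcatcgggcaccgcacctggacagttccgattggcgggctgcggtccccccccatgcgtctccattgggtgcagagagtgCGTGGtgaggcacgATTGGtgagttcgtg

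The assay was 3′ digital gene expression, which counts transcript ends, and the deposited values are a normalized signal. Its worth per count differed between libraries, from 4.22 in the deepest to 76.0 in the shallowest. Depth was low: astrocyte libraries held 53228 to 221367 counts with shXbp1 and 32842 to 302003 with shScrmbl, microglia 10039 to 46586 and 17892 to 122002, and monocytes 15654 to 56625 and 74340 to 112676. Of the listed cell type markers, 11 of 12 for astrocytes were in the astrocyte table (Gfap was not), and all 14 for microglia and all 12 for monocytes and macrophages were in the tables of their own cells. The astrocyte table also held all 14 microglia markers, and the microglia table all 12 for monocytes and macrophages. In astrocyte libraries the 11 astrocyte markers summed to only 2302 to 3282 with shXbp1 and 2003 to 2427 with shScrmbl. Choroid plexus and ependyma markers, 9 of 10 listed genes, summed there to 149336 to 274209 with shXbp1 and 211996 to 310108 with shScrmbl. Ttr, a gene of that last list, alone made up 14.2% to 26.7% of the counts of astrocyte libraries. Xbp1 itself gave 34.1, 52.9, 31.2 and 79.7 in shXbp1 astrocytes against 20.1, 71.7, 79.9 and 27.6 in shScrmbl astrocytes, from 28 and 22 counts, so these counts do not separate the labels (limma log2 difference 0.12, 95% interval -1.33 to 1.57, adjusted p = 0.966).

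In astrocytes 9 of the 10 genes had a higher signal in shXbp1 than in shScrmbl libraries by limma, and 9 by edgeR, led in counts by Hspa5 and Hsp90b1, and none passed a test over all genes. Of all 6366 genes tested, 68.2% were higher by limma and 53.2% by edgeR. The median log2 difference was 0.74 for the 10 genes and 0.42 for all genes by limma, and 0.53 against 0.05 by edgeR. Of the 10, 0 passed limma at an adjusted p under 0.05, as did 0% of all genes, and 4 had an unadjusted p under 0.05, against 4.68% of all genes. edgeR's quasi-likelihood test on the recovered counts called 0 of them, against 0.0628% of all genes, and DESeq2 called 0. At an unadjusted p under 0.05 edgeR had 3 of the 10, against 417 of all 6366 genes. DESeq2 had 1 of the 10, against 131 of the 6366. In sorted bulk RNA a different mix of cells and a different level per cell cannot be told apart.

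Hspa5 encodes BiP, the Hsp70 of the ER and the main brake on the stress sensors. It gave 1944, 1030, 1645 and 1275 in shXbp1 astrocytes, against 1063, 869, 639 and 469 in shScrmbl astrocytes. In all, 3 of the 4 shXbp1 libraries lay above every shScrmbl library and shXbp1 replicate 2 (1030) lay just below the highest of them (1063). The mean was 1473 ± 403 against 760 ± 260 (SD, n = 4 each), a ratio of 1.94, from 678 and 300 counts. The limma log2 difference of 0.98 ± 0.29 (SE) had a 95% interval from 0.37 to 1.58 and an adjusted p of 0.824. edgeR gave 0.92 (adjusted p = 0.685). Leaving out each library in turn kept the limma difference between 0.77 and 1.16. At a like depth, shXbp1 replicate 1 (53228 counts) had 1944 and shScrmbl replicate 1 (50392 counts) had 1063. Among the deepest libraries, shXbp1 replicate 2 (221367 counts) had 1030 and shScrmbl replicate 2 (302003 counts) had 869. Their 95% counting intervals, 896 to 1177 and 754 to 996, overlapped. The lowest shScrmbl values, 639 and 469, came from libraries of 35450 and 32842 counts, and no shXbp1 astrocyte library was as shallow.

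Hsp90b1 encodes GRP94, the Hsp90 of the ER. Its signal was 1620, 1179, 1405 and 1587 in shXbp1 astrocytes, against 1484, 1096, 666 and 607 in shScrmbl astrocytes. The shXbp1 values stayed close together, while the shScrmbl libraries split into a higher and a lower pair, and the groups overlapped. Means were 1448 ± 203 and 963 ± 410 (SD, n = 4 each), with a limma difference of 0.67 ± 0.28 (SE, adjusted p = 0.824).

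Canx and Calr encode calnexin and calreticulin, the membrane-bound and the soluble lectin chaperone, which bind glycoproteins through a trimmed sugar. Canx gave 921, 404, 552 and 478 in shXbp1 astrocytes, against 582, 270, 213 and 303 in shScrmbl astrocytes, with replicate 1 the highest in either group. Its means were 589 ± 229 and 342 ± 164 (SD, n = 4 each), and its limma difference was 0.82 ± 0.36 (SE, adjusted p = 0.824). Calr gave 682, 294, 500 and 438 with shXbp1 and 441, 316, 293 and 331 with shScrmbl, so 2 of 4 shXbp1 libraries lay above the whole shScrmbl group (difference 0.42 ± 0.33, limma adjusted p = 0.824).

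Pdia3, Pdia4 and Pdia6 encode disulfide isomerases, and Pdia3 (ERp57) works with the lectin chaperones on glycoproteins. Pdia3 gave 205, 226, 271 and 206 in shXbp1 astrocytes, against 120, 207, 107 and 165 in shScrmbl astrocytes. The lowest shXbp1 library was thus level with the highest shScrmbl library, and the means were 227 ± 30.8 and 150 ± 45.5 (SD, n = 4 each). Pdia4 (ERp72) gave 171, 212, 135 and 99.6 with shXbp1 and 261, 131, 26.6 and 27.6 with shScrmbl, where both low values stood for 1 count each. Pdia6 (P5), which acts on BiP and IRE1, gave 205, 337, 187 and 299 with shXbp1 and 80.2, 426, 213 and 221 with shScrmbl. The shScrmbl values of Pdia6 enclosed all shXbp1 values, and its pooled count ratio was 0.971 (95% counting interval 0.758 to 1.25). Limma differences were 0.64 ± 0.38 for Pdia3, 1.05 ± 0.64 for Pdia4 and 0.31 ± 0.44 for Pdia6 (SE), with adjusted p of 0.824, 0.824 and 0.870, while edgeR gave 0.50, 0.35 and 0.02.

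Dnajc3 (P58IPK) and Dnajb11 (ERdj3) encode J-domain co-chaperones that hand unfolded chains to BiP. Dnajc3 gave 324, 303, 458 and 259 in shXbp1 astrocytes, against 140, 118, 373 and 165 in shScrmbl astrocytes. Only shScrmbl replicate 3 reached into the shXbp1 range, and the means were 336 ± 85.7 and 199 ± 117 (SD, n = 4 each; limma difference 0.87 ± 0.39 SE, adjusted p = 0.824). Dnajb11 was near the limit of detection, with 51.2, 38.5, 41.6 and 39.8 in shXbp1 and 60.2, 21.1, 0 and 27.6 in shScrmbl astrocytes, from 21 and 9 counts. Its limma difference of 1.63 rests on the library at 0, and edgeR gave 0.65 (adjusted p = 0.927). In that library a count of 0 allows a signal of up to 79.9, the worth of 3 counts, so the gene was not detectable there rather than absent.

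Creld2, a secreted ER protein that is induced by ER stress, was the single member with a lower mean in shXbp1 astrocytes. It gave 102, 43.3, 31.2 and 46.5 with shXbp1 and 120, 46.4, 26.6 and 110 with shScrmbl, a mean of 55.8 ± 31.7 against 75.9 ± 46.4 (SD, n = 4 each). The values intermingled (limma difference -0.33 ± 0.60 SE, 95% interval -1.59 to 0.92, adjusted p = 0.889). None of the 10 genes had groups fully apart in astrocytes, against 2.37% of all genes fully apart upward and 0.785% downward.

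**Figure D2:**
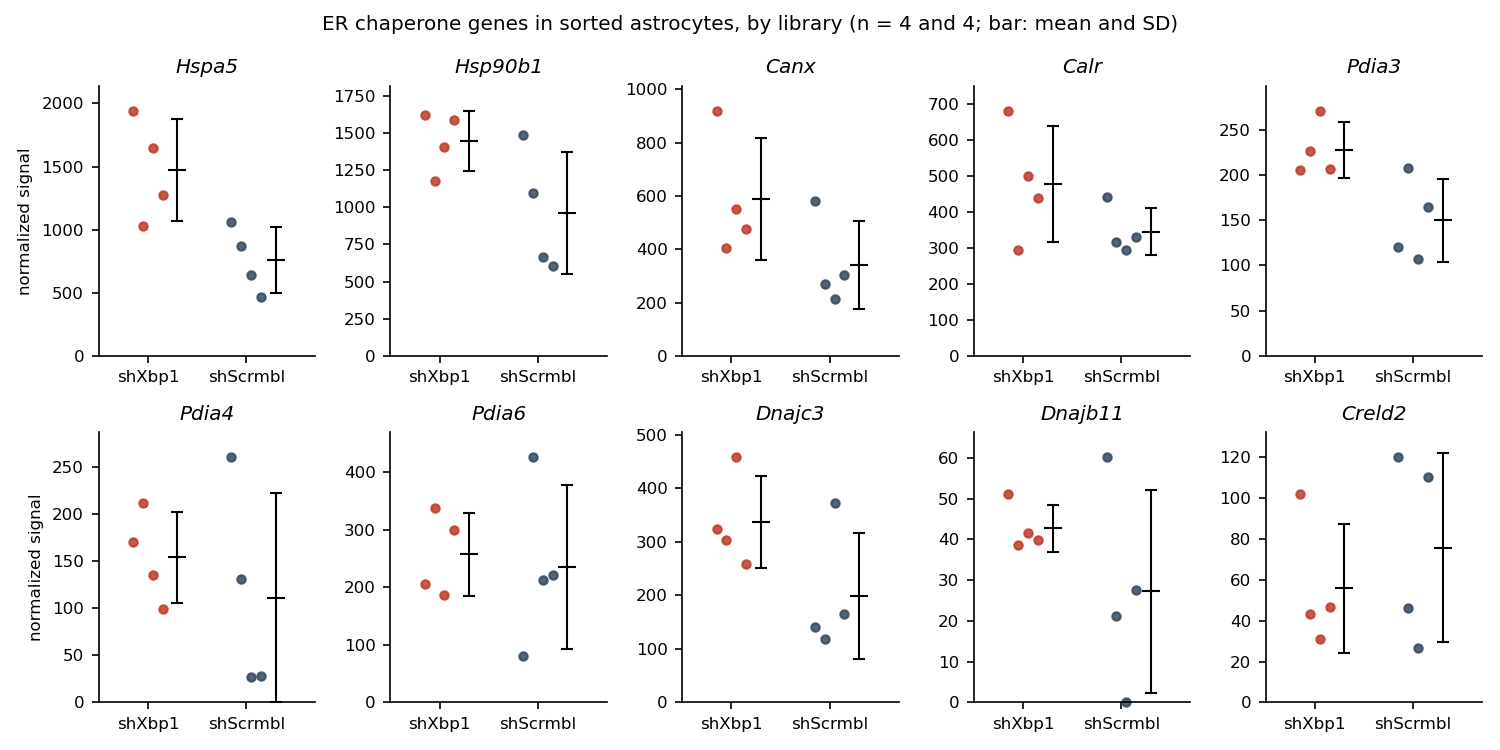
Normalized signal of each of the 10 genes (y axis, from 0) in sorted astrocytes; points are libraries, shXbp1 (red) and shScrmbl (dark), and the bar beside each group is the mean with its SD (n = 4 each). Hspa5 runs from 1030 to 1944 with shXbp1 and from 469 to 1063 with shScrmbl, while Pdia6 and Creld2 intermingle.

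The spread between libraries differed from member to member. In shXbp1 and shScrmbl astrocytes the coefficient of variation was 27.3% and 34.2% for Hspa5, beside 7.68% and 11.5% for counting error, taken from the counts of a group as if its libraries were equally deep. For Hsp90b1 it was 14.0% and 42.6% (counting 7.48% and 10.2%), and for Canx 39.0% and 48.0% (counting 12.3% and 18.9%). For Calr it was 33.7% and 19.1% (counting 13.6% and 18.3%), so in shScrmbl libraries the 2 values were close. Dnajb11 had 13.4% in shXbp1 libraries, below its counting error of 43.6%. Depth was unequal within groups, so these counting errors are approximate and too low, and no test was made. Calr in shScrmbl libraries, for example, rested on 22, 75, 11 and 12 counts. shXbp1 replicate 1 held the highest value of its group for 6 of the 10 genes and shScrmbl replicate 1 for 7.

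Choroid plexus and ependyma markers moved with Hspa5 within each astrocyte group, in opposite senses. In shXbp1 replicates 1 to 4 their summed signal was 177495, 274209, 149336 and 255487 beside Hspa5 values of 1944, 1030, 1645 and 1275. In shScrmbl replicates 1 to 4 it was 310108, 287339, 224789 and 211996 beside 1063, 869, 639 and 469. With shXbp1 the 2 libraries richest in these markers were the 2 lowest for Hspa5, and with shScrmbl the 2 richest were the 2 highest. Microglia markers (14 of 14 listed genes in the table, none at 0 throughout) summed to 1291 to 1978 in shXbp1 and 1065 to 5280 in shScrmbl astrocytes, and monocyte and macrophage markers (8 of 12, without Ccr2, Ly6c2, Plac8 and Ms4a4c) to 426 to 1102 and 361 to 5246. The high ends were both shScrmbl replicate 2, and without it the limma difference of Hspa5 was 1.07. Oligodendrocyte markers (8 of 8) summed to 2218 to 7111 and 2823 to 5847, and the part of any of these cells in the chaperone values was not tested.

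In microglia 4 of the 9 genes were higher and 5 lower in shXbp1 than in shScrmbl libraries, by limma and by edgeR. Among all 3066 genes tested, 34.5% were higher by limma and 44.6% by edgeR. The median difference was -0.04 for the 9 genes and -0.39 for all genes by limma, and -0.00 and -0.09 by edgeR. No member passed limma (0% of all genes did), edgeR (0.424% did) or DESeq2, and 0 of the 9 had an unadjusted p under 0.05 in any of these tests, against 5.41% of all genes by limma.

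Hspa5 and Pdia6 were the members whose groups did not overlap in microglia, and they lay on opposite sides. Hspa5 gave 1824, 1656 and 1436 in shXbp1 microglia, against 1401, 770, 1214 and 1240 in shScrmbl microglia. All 3 shXbp1 libraries were above all 4 shScrmbl libraries, the closest pair being 1436 and 1401, and 2.32% of all genes showed that upward separation. The mean was 1639 ± 194 (SD, n = 3) against 1156 ± 271 (n = 4), with a limma difference of 0.53 ± 0.36 (SE), a 95% interval from -0.20 to 1.26 and an adjusted p of 0.814. Pdia6 gave 152, 276 and 239 with shXbp1 and 363, 353, 364 and 440 with shScrmbl. The shXbp1 libraries were all lower, a separation that 4.92% of all genes showed downward, and they held only 16 counts of Pdia6 against 85. Its mean was 222 ± 63.7 (SD, n = 3) against 380 ± 40.2 (n = 4), and the limma difference was -0.81 ± 0.45 (SE), with a 95% interval from -1.73 to 0.11 and an adjusted p of 0.804.

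The other microglia members overlapped. Hsp90b1 had 912, 1035 and 1436 with shXbp1 and 727, 1262, 952 and 960 with shScrmbl (limma difference 0.21 ± 0.37 SE, adjusted p = 0.893). Calr had 532, 759 and 239 with shXbp1, a spread that enclosed the shScrmbl values of 363, 429, 355 and 320. Canx had 76.0, 414 and 407 against 415, 315, 355 and 240, so a single shXbp1 library, the shallowest, stood low. There 1 count was worth a signal of 76.0. Pdia3 had 304, 207 and 263 with shXbp1 and 363, 328, 196 and 200 with shScrmbl, a nearly equal mean (258 ± 48.7 and 272 ± 86.5). Dnajc3 had 76.0, 138 and 71.8 against 208, 139, 74.7 and 80.0, and Pdia4 was listed at 0 in 1 library of each group. Dnajb11 rested on 2 counts in shXbp1 and 14 in shScrmbl microglia, a pooled ratio of 0.528 with a 95% counting interval of 0.0582 to 2.30.

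Depth and cell markers differed between the microglia groups as well. The 2 shallowest libraries, with 10039 and 13321 counts, were the 2 shXbp1 libraries with the highest Hspa5, and the 95% counting intervals of the Hspa5 signal there were 1169 to 2714 and 1061 to 2464. Both intervals reach below the highest shScrmbl value of 1401. Over pooled libraries the count ratio of Hspa5 was 1.6 (95% counting interval 1.27 to 2.02), which leaves out the spread between libraries. The limma interval, which includes that spread, ran from -0.20 to 1.26 on the log2 scale. Monocyte and macrophage markers (12 of 12) summed to 2736 to 9797 in shXbp1 and 6488 to 28304 in shScrmbl microglia, and the highest of these, shScrmbl replicate 2, had the lowest Hspa5 (770). Choroid plexus and ependyma markers (4 of 10) summed to 33461 to 43118 and 18040 to 63844. Sums that did not overlap were those of neutrophil markers (4 of 7; 138 to 192 in shXbp1 and 429 to 520 in shScrmbl microglia), of T, NK and B cell markers (3 of 8; 0 to 95.8 and 120 to 519) and of oligodendrocyte markers (3 of 8; 836 to 2070 and 520 to 656). Their part in the values was not tested.

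**Figure D3:**
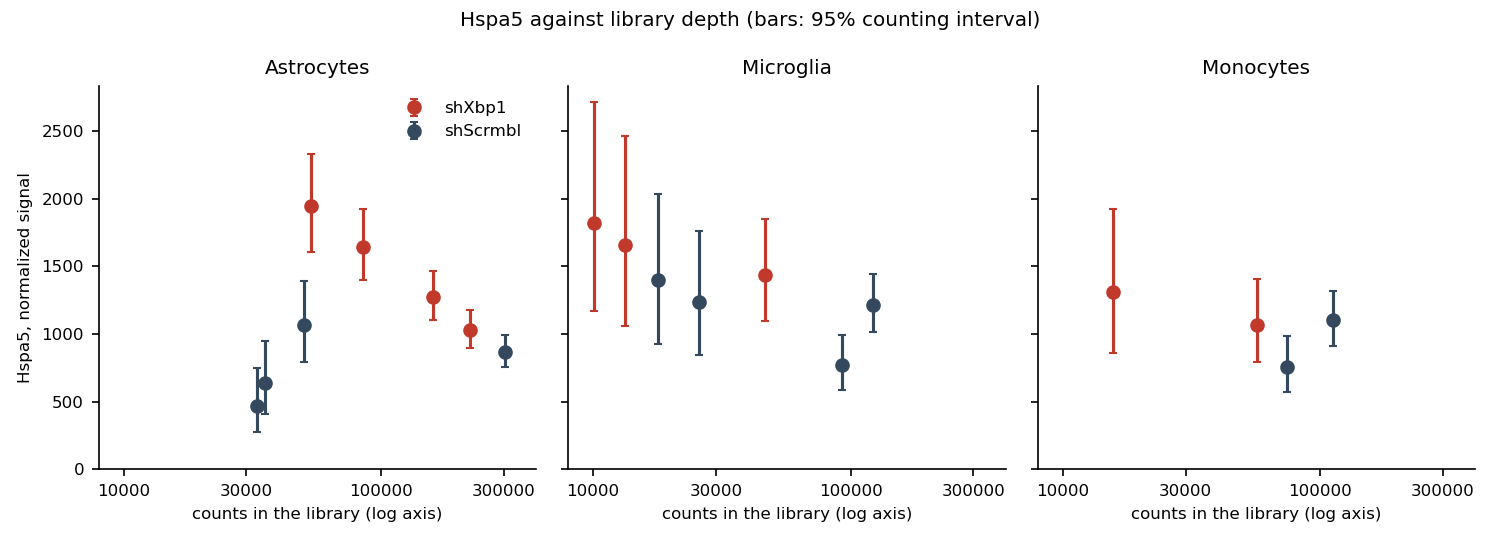
Hspa5 normalized signal (y axis, from 0) against the counts held by each library (log x axis) in astrocytes, microglia and monocytes; bars are 95% counting intervals, shXbp1 in red and shScrmbl dark. In microglia the 2 shallowest libraries, at 10039 and 13321 counts, are shXbp1 and carry the highest values, 1824 and 1656.

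In monocytes, with 2 libraries a group, 7 of the 10 genes were higher in shXbp1 by limma and 6 by edgeR, and 3 had groups fully apart upward. Over all 3775 genes, 34.2% were higher by limma, 43.1% by edgeR, and 9.85% were fully apart upward. None of the 10 was fully apart downward, against 25% of all genes. Limma called 0 of the 10, against 2.68% of all genes, and 1 had an unadjusted p under 0.05 (4.77% of all genes). edgeR called 0 of the 10, against 0.0265% of all genes, and DESeq2 called 0. At an unadjusted p under 0.05 edgeR had 1 of the 10, against 175 of all 3775 genes, and DESeq2 had 0, against 21.

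Creld2, Dnajb11 and Pdia3 were the 3 genes whose monocyte groups did not overlap. Creld2 gave 101 and 147 in shXbp1 monocytes against 27.9 and 36.4 in shScrmbl monocytes. Its limma difference of 1.90 ± 0.83 (SE) had an adjusted p of 0.740, and the pooled count ratio was 3.88 (95% counting interval 1.23 to 13.3) from 9 and 6 counts. Its astrocyte difference was -0.33, and the difference between the cell types was not tested. Dnajb11 gave 152 and 41.9 against 14.0 and 27.3, on 5 counts against 4, and the 95% counting interval of its pooled ratio, 3.23, ran from 0.696 to 16.3. Pdia3 gave 152 and 251 against 140 and 137, where the nearest pair differed by less than the worth of 1 count (50.6) in the shallower shXbp1 library.

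The abundant chaperones overlapped in monocytes. Hspa5 gave 1314 and 1068 with shXbp1 and 755 and 1102 with shScrmbl (limma difference 0.38 ± 0.61 SE, adjusted p = 0.888). Hsp90b1 gave 1011 and 754 against 741 and 1193, and Canx 404 and 209 against 182 and 428. Within shScrmbl, replicate 2 exceeded replicate 1 for 8 of the 10 genes, and within shXbp1 replicate 1, the shallowest monocyte library at 15654 counts, exceeded replicate 2 for 7. For Hsp90b1 and Canx the libraries of a group thus lay farther apart than the group means (882 and 967 for Hsp90b1, 307 and 305 for Canx). Calr gave 455 and 230 against 238 and 255, Pdia4 303 and 83.7 against 55.9 and 173, Pdia6 101 and 523 against 447 and 273, and Dnajc3 253 and 83.7 against 112 and 200. Monocyte and macrophage markers (12 of 12) summed to 4803 and 16958 in the shXbp1 libraries and 22931 and 22983 in the shScrmbl libraries. The lowest of these, shXbp1 replicate 1, had the highest share of its counts in the listed chaperones (0.524%). Plasma cell markers, from a cell type rich in ER, were in part in the table (3 of 7, without Derl3, Ighm, Igkc and Sdc1) and summed to 1416 to 1591 in shXbp1 and 727 to 1858 in shScrmbl monocytes. Neutrophil markers (6 of 7) summed to 202 to 230 in shXbp1 and 565 to 769 in shScrmbl monocytes. T, NK and B cell markers (4 of 8) summed to 2477 to 2847 and 1521 to 2362. Choroid plexus and ependyma markers (2 of 10) summed to 5192 to 8039 and 3745 to 4826, highest in shXbp1 replicate 1. None of these pairs of ranges overlapped. With 2 libraries a group, 9.85% of all genes were fully apart upward and 25% downward. The part of any of these cells was not tested.

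**Figure D4:**
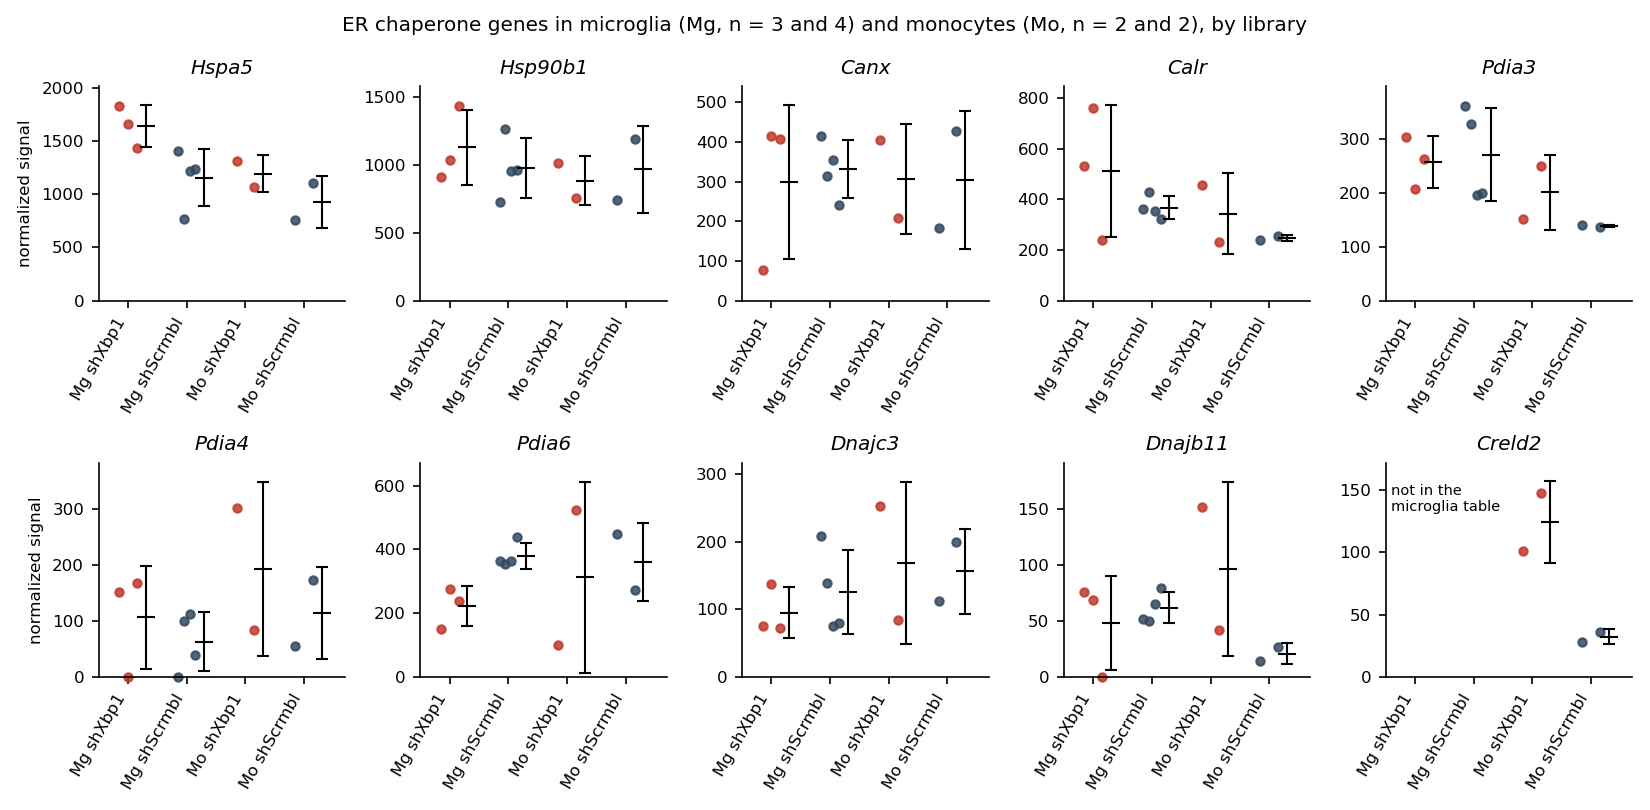
Normalized signal of the 10 genes (y axes, from 0) in microglia (Mg, 3 shXbp1 and 4 shScrmbl libraries) and monocytes (Mo, 2 and 2); points are libraries and the bar beside each group is the mean with its SD. Hspa5 and Pdia6 do not overlap between the microglia groups, nor Pdia3, Dnajb11 and Creld2 between the monocyte groups.

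Hspa5, Calr and Pdia4 had a higher mean signal in shXbp1 than in shScrmbl libraries in all 3 cell types. The ratio of means for Hspa5 was 1.94 in astrocytes, 1.42 in microglia and 1.28 in monocytes. For Calr it was 1.39 in each, and for Pdia4 1.38, 1.68 and 1.69. Pooled count ratios of Pdia4 were 1.44, 1.58 and 1.12. Pdia4 rested on 9 shXbp1 and 21 shScrmbl counts in microglia (limma difference 0.17 ± 2.31 SE) and on 10 and 23 in monocytes. For Calr in monocytes, 1 shXbp1 library (230) lay below both shScrmbl libraries (238 and 255). None of these differences passed limma, and how many of all genes were higher in all 3 cell types was not tested. Hsp90b1, with ratios of 1.5, 1.16 and 0.913, lay on both sides of equality, as did Canx, with 1.72, 0.902 and 1.01. The cell types are given side by side, since it is not stated which libraries share a mouse, and differences between them were not tested.

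**Figure D5:**
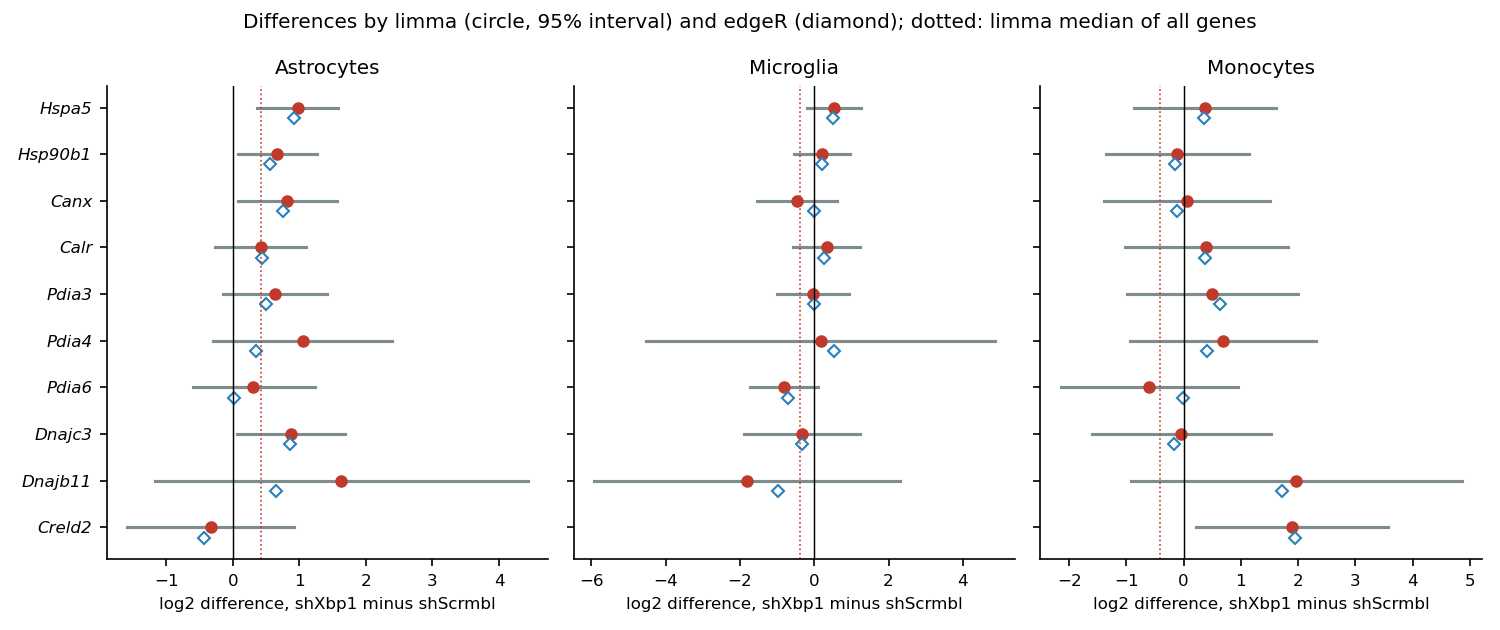
Log2 difference, shXbp1 minus shScrmbl, of each gene in astrocytes, microglia and monocytes by limma (red circle, with its 95% interval) and by edgeR (open blue diamond), with the limma median of all genes dotted at 0.42, -0.39 and -0.42. The x axis is scaled separately in each panel; in astrocytes 9 of 10 circles lie above 0, and only Hspa5, Hsp90b1, Canx and Dnajc3 in astrocytes and Creld2 in monocytes have an interval above 0.

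Most genes with ERSE in the promoter, and the genes without it, had a higher mean in shXbp1 astrocytes. The limma differences of the 7 genes with ERSE were 0.98 (Hspa5), 0.67 (Hsp90b1), 0.82 (Canx), 0.42 (Calr), 0.31 (Pdia6), 0.87 (Dnajc3) and -0.33 (Creld2). Those of the 3 without it were 0.64 (Pdia3), 1.05 (Pdia4) and 1.63 (Dnajb11). By edgeR the 7 had 0.92, 0.56, 0.76, 0.44, 0.02, 0.86 and -0.43 in the same order, and the 3 had 0.50, 0.35 and 0.65. None of these differences passed, the 2 sets overlapped by either tool, and whether they differ was not tested.

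No member stood out by level in a cell type. Each table was normalized on its own, so levels across cell types are a description with no test. Hspa5 had a mean signal of 1117 ± 494 in astrocytes (SD, n = 8), 1363 ± 340 in microglia (n = 7) and 1060 ± 231 in monocytes (n = 4), both hairpins together. Hsp90b1 had 1206 ± 396, 1041 ± 236 and 925 ± 218. For all 10 genes the ranges over libraries overlapped between the cell types that held them, so no order of cell types stands beyond the spread. In proportion the widest gap between means was that of Dnajc3, with 268 ± 120 in astrocytes, 112 ± 51.4 in microglia and 162 ± 78.2 in monocytes. Dnajc3 rested on only 6 shXbp1 and 25 shScrmbl counts in microglia and 9 and 30 in monocytes. Several of its microglia values lay below the worth of 3 counts. Calr had 412 ± 134, 428 ± 172 and 294 ± 108, Canx 465 ± 227, 317 ± 124 and 306 ± 128, and Pdia6 246 ± 105, 313 ± 96.3 and 336 ± 188.

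Because a 3′ protocol counts transcript ends, levels of different genes were compared as signal without dividing by length. In every library Hspa5 and Hsp90b1 together made up between 46.4% and 67.4% of the counts of the 9 members found in all tables. In astrocytes Canx and Calr came next (mean signal 465 and 412 over 8 libraries), then Dnajc3, Pdia6, Pdia3 and Pdia4 (268, 246, 188 and 133), with Creld2 and Dnajb11 at the low end (65.9 and 35.0). Canx and Calr differed by less than their SDs (227 and 134), as did Dnajc3 and Pdia6 (120 and 105). The 9 members took 0.378% to 0.674% of all counts in shXbp1 and 0.256% to 0.419% in shScrmbl astrocytes, 0.382% to 0.538% and 0.320% to 0.419% in microglia, and 0.274% to 0.524% and 0.258% to 0.369% in monocytes.

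Of 27 other listed genes of ER folding, 15 were tested in astrocytes, 9 higher and 6 lower by limma where 68.2% of all genes were higher. Their median was 0.24, beside 0.42 for all genes, and 0 passed (0 at an unadjusted p under 0.05 by limma, edgeR or DESeq2). Among the 4 with the highest signal, Fkbp2, a prolyl isomerase, had 368 ± 75.2 in shXbp1 and 478 ± 74.7 in shScrmbl astrocytes, and P4hb, the founding protein disulfide isomerase, had 81.3 ± 34.5 and 114 ± 35.5 (SD, n = 4 each). The J-protein Dnajc1 had 127 ± 24.6 and 75.6 ± 28.3, and the cyclophilin Ppib had 92.4 ± 24.1 and 83.0 ± 38.3. In microglia 3 of 9 tested were higher (median -1.58 by limma and 0.02 by edgeR) and in monocytes 5 of 12 (median -0.32 by limma and 0.18 by edgeR), with 0 passing limma or edgeR. Of all genes 34.5% in microglia and 34.2% in monocytes were higher by limma. The medians of all genes were -0.39 and -0.42 by limma and -0.09 and -0.17 by edgeR.

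Cytosolic chaperones belong to the heat shock system and not to the ER. In shXbp1 astrocytes 14 of 18 were higher and 4 lower by limma, where 68.2% of all genes were higher. The median of the 18 was 0.31 by limma and 0.19 by edgeR, beside 0.42 and 0.05 for all genes. None of the 18 passed, and 4 had an unadjusted p under 0.05 by limma, 2 by edgeR and 2 by DESeq2. Of all 6366 genes, 298, 417 and 131 had. The cytosolic Hsp90 genes had 6388 ± 1421 and 3763 ± 1233 (Hsp90aa1) and 3886 ± 683 and 2714 ± 788 (Hsp90ab1) in shXbp1 and shScrmbl astrocytes (SD, n = 4 each). Hspa8 had 2744 ± 380 and 2398 ± 269, and Dnaja1 had 685 ± 132 and 666 ± 117. Both Hsp90 genes of the cytosol thus had a higher mean with shXbp1, like Hsp90b1 of the ER, without passing the test (limma adjusted p = 0.824 for each). In microglia 2 of 14 and in monocytes 9 of 17 cytosolic chaperones were higher by limma, against 34.5% and 34.2% of all genes. Limma called 1 of the 17 in monocytes, against 2.68% of all genes, and edgeR called 0, against 0.0265%.

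Regulators of the unfolded protein response were divided in astrocytes, with 4 of 8 tested higher and 4 lower by limma, and 3 and 5 by edgeR. Of all genes 68.2% were higher by limma and 53.2% by edgeR. Of the 8 regulators 0 passed. By each of limma, edgeR and DESeq2, 1 had an unadjusted p under 0.05, against 298, 417 and 131 of all 6366 genes. Creb3, a transcription factor anchored in the ER membrane, had 34.7 ± 24.4 in shXbp1 and 138 ± 29.4 in shScrmbl astrocytes (limma difference -2.21, adjusted p = 0.824; edgeR adjusted p = 0.225). Sel1l, of the ER degradation complex, had 90.1 ± 22.1 and 46.1 ± 28.7, the stress factor Atf4 63.5 ± 21.2 and 88.3 ± 48.3, and Ppp1r15a, which restores translation after stress, 79.6 ± 18.1 and 93.7 ± 55.3. In microglia 5 of 8 and in monocytes 4 of 7 regulators were higher by limma, against 34.5% and 34.2% of all genes.

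The 5 astrocyte genes whose log2 signal followed that of Hspa5 most closely over the 8 libraries, among 620 genes with a mean signal of at least 200, were Atrx, Hsp90b1, Pbrm1, Eif4g2 and Zc3h11a, with Pearson's r of 0.93, 0.92, 0.92, 0.91 and 0.91. The 8 libraries hold both hairpins and differ in depth, so this is a description. Hsp90b1, a member, stood at rank 2, Canx at rank 12 (0.85) and Calr at rank 21 (0.81), whereas Dnajc3 (0.43) and Pdia6 (-0.11) stood at ranks 137 and 336. Atrx, a chromatin remodeller, had 907 ± 333 in shXbp1 and 520 ± 211 in shScrmbl astrocytes (SD, n = 4 each). Eif4g2, a translation initiation factor, had 368 ± 85.6 and 227 ± 151, Pbrm1, a chromatin remodelling subunit, 302 ± 92.7 and 155 ± 48.2, and Zc3h11a, a zinc finger protein of mRNA export, 364 ± 111 and 269 ± 82.4.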

How the data were processed

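Per the labels' protocols, each mouse's nervous system was trypsinized, filtered, spun in Percoll, stained and sorted, and libraries were made by 3′ digital gene expression. For each cell type the authors deposited a table of normalized signal by gene and library. Aligner BWA (0.7.10), the package limma (3.34.1) and mm10 as the build appear, with no role, in the submitters' processing notes; the counter, annotation, strand setting, filter and scaling are not given in the sources used here. In each library the values were multiples of a single step, to within 0.01 of a count for 100% of values, so counts were recovered. Their nature (reads or molecules) is not stated, and intervals cover counting error only. Pdia3, Pdia6 and Hsp90b1 share exon bases with genes on the opposite strand, Hsp90b1 and Pdia4 with other genes on the same strand, and Calr has a processed pseudogene, so their counts are uncertain to that extent.

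Each cell type was fitted alone across all genes with limma 3.58.1 (trend, robust) on log2(signal + 1), shXbp1 minus shScrmbl, keeping genes whose signal reached 1 in a number of libraries equal to the smaller group. P-values were adjusted by Benjamini-Hochberg with a threshold of 0.05, and the pseudocount makes limma differences of low genes depend on depth. Alternatives on the recovered counts were edgeR 4.0.16 (quasi-likelihood) and DESeq2 1.42.0. Whether each library is a separate animal is not stated, so p-values measure the spread between these libraries. Over 23 pairs of libraries within groups the chi-square per gene was 1.15 to 3.80, so none was a copy of another within counting noise. The tests were checked on simulated data. The genes named are the 10 listed ones, Xbp1, the 4 genes of highest astrocyte signal in each context list and the 5 most like Hspa5; members and lists were chosen with earlier results of these data known. Coordinates are GRCm38, with genes from GENCODE M21 and promoters from RefSeq. A floor is 3 counts. Software was R 4.3.3 and Python 3.11.15 (scipy 1.17.1).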

Additional observations from a re-analysis of the deposited data

Results flagged for a closer look

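Pdia6 in shScrmbl microglia replicate 4, with a signal of 440, stood apart from the other 3 libraries of its group, which lay between 353 and 364. Among 32 groups of values examined for such a gap it was the only one marked, where chance marks about 1 in 20.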

How the results depend on the processing

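No listed gene passed in any alternative that kept at least 2 libraries in each group. With a monocyte library left out, its group holds a lone library that is assumed to vary like the others. Calls from those fits are therefore not given, for listed genes or for all genes. Without shXbp1 replicate 2 the limma difference in monocytes was -1.78 for Pdia6 and 2.89 for Dnajb11. Over all genes, edgeR called 4 in astrocytes against 0 by limma. In microglia limma called 0, against 1 with pseudocount 100, 6 with quantile normalization, 13 by edgeR, 2 on each library's share of counts (an alternative chosen after seeing the data) and 0 to 3 with a library left out (3 without shScrmbl replicate 1). In monocytes the 101 calls of limma became 0 with pseudocount 10 or 100, with a mean signal of at least 50, with quantile normalization or by DESeq2, 1 by edgeR, and 0 to 1163 with a library left out (0 without either shScrmbl library, 486 without shXbp1 replicate 1, 1163 without shXbp1 replicate 2). The cause was not tested.

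Log2 differences of listed genes changed sign in 2 of 169 alternatives in astrocytes, 11 of 144 in microglia and 15 of 140 in monocytes. In astrocytes Pdia6 was -0.03 by DESeq2 and -0.12 to 0.67 with a library left out. In microglia Dnajb11 was 0.13 with quantile normalization and Pdia3 0.17 on shares of counts. With a microglia library left out, Canx ranged from -0.88 to 0.34, Calr from -0.03 to 0.80, Pdia3 from -0.17 to 0.12, Pdia4 from -1.40 to 2.61 and Dnajb11 from -2.89 to 0.25. In monocytes Dnajc3 was 0.01 with pseudocount 100, 0.12 with quantile normalization and 0.05 on shares of counts, and Canx was -0.11 by edgeR and -0.05 by DESeq2. With a monocyte library left out, Hsp90b1 ranged from -0.45 to 0.24, Canx from -0.55 to 0.68, Calr from -0.10 to 0.88, Pdia4 from -0.23 to 1.61, Pdia6 from -1.78 to 0.58 and Dnajc3 from -0.83 to 0.75. Mean levels moved by less than the SD over libraries in 268 of 268 alternatives. Most of these left out a single library, which cannot move a mean by its SD, so their outcome was fixed in advance. The others took the levels as shares of counts over different totals.

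Replicate numbers were shared across groups, but same-numbered libraries did not deviate together (correlations -0.0691 to 0.0569 in astrocytes, -0.0264 to 0.0347 in microglia and -0.116 in monocytes, with 2 of 8 astrocyte and 4 of 6 microglia libraries closest to their own number). With the replicate block limma called 0 genes in astrocytes, 0 in microglia and 112 in monocytes, no listed gene among them, and the Hspa5 difference in astrocytes was 0.98. With the numbers crossed in monocytes, a pairing chosen after seeing the data, 114 genes were called.

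Depth limits the low genes, as 1 count was worth up to 76.0 in signal. Dnajb11 and Xbp1 in all 3 tables, Creld2 in astrocytes and monocytes, and Pdia4 and Dnajc3 in microglia and monocytes rest on few counts.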
